A study of Drosophila melanogaster with 4 samples.

Results

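Myb binding was described at the pericentric ends of the autosomal arms 2L, 3L and 3R, the stretches of the assembled sequence that lie next to the centromere. The ends were chosen by position on the dm3 assembly, as chr2L:22000000-23011544, chr3L:22950000-24543557 and chr3R:1-400000, and cut into bins of 1 kb that hold 5 or more probes. This gave 2855 bins of 146889 on the arrays, with 954 on 2L, 1512 on 3L and 389 on 3R. Each end was set against the adjoining 2 Mb of its own arm, which held 1963 bins on 2L, 1978 on 3L and 1994 on 3R. Chromatin was taken from pooled wing imaginal discs, a larval tissue that forms the adult wing, of male 3rd instar larvae of the control genotype yw67, with a yellow body and white eyes. In ChIP-chip, DNA recovered with an antibody (IP) is hybridized to a tiled array beside sonicated genomic DNA (input). There were 2 biological replicates, and each was hybridized to 2 array designs, the first with 2L and 3L and the second with 3R. All samples were of this 1 condition, so places in the genome were compared and not groups of larvae, and a disc is a mix of cell types whose shares these arrays do not show.

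Pericentric heterochromatin surrounds the centromeres, is rich in transposon remnants and satellite repeats, and carries H3K9 methylation and HP1. It holds few genes, many with long introns full of repeats, and some of them need the heterochromatic setting for their normal expression, such as light (lt) on 2L. Myb binds DNA as a subunit of the dREAM complex, and it is often found at promoters. The complex regulates genes of the mitotic cycle, largely as a repressor, and Myb acts mainly as its activating part. No histone mark was measured on these arrays, so the heterochromatic state of the ends was not checked here. The values below are log2 ratios of IP over input, with each array centred on the median of its genome probes, so a value of 0 is the level of the median probe and not the absence of Myb.

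The Myb ratio was lower in the end than in the adjoining 2 Mb on all 3 arms and in both replicates, and the difference was widest on 3L. In the 3L end the median bin stood at −0.26 and −0.33 (replicates 1 and 2), against 0.06 and 0.09 in the adjoining 2 Mb. The end was therefore lower by 0.32 and 0.42, with a mean difference of −0.37 ± 0.07 (SD, n = 2). In the 2L end the median bin stood at −0.21 and −0.26, against −0.09 and −0.08 in the adjoining 2 Mb, with a mean difference of −0.15 ± 0.05 (SD, n = 2). In the 3R end it stood at −0.01 and −0.02, against 0.09 and 0.13 in the adjoining 2 Mb, with a mean difference of −0.12 ± 0.03 (SD, n = 2). Each difference was larger than its SD between replicates. With 2 replicates an exact two-sided sign-flip test cannot go below p = 0.5, so no p was given for these differences.

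**Figure D1:**
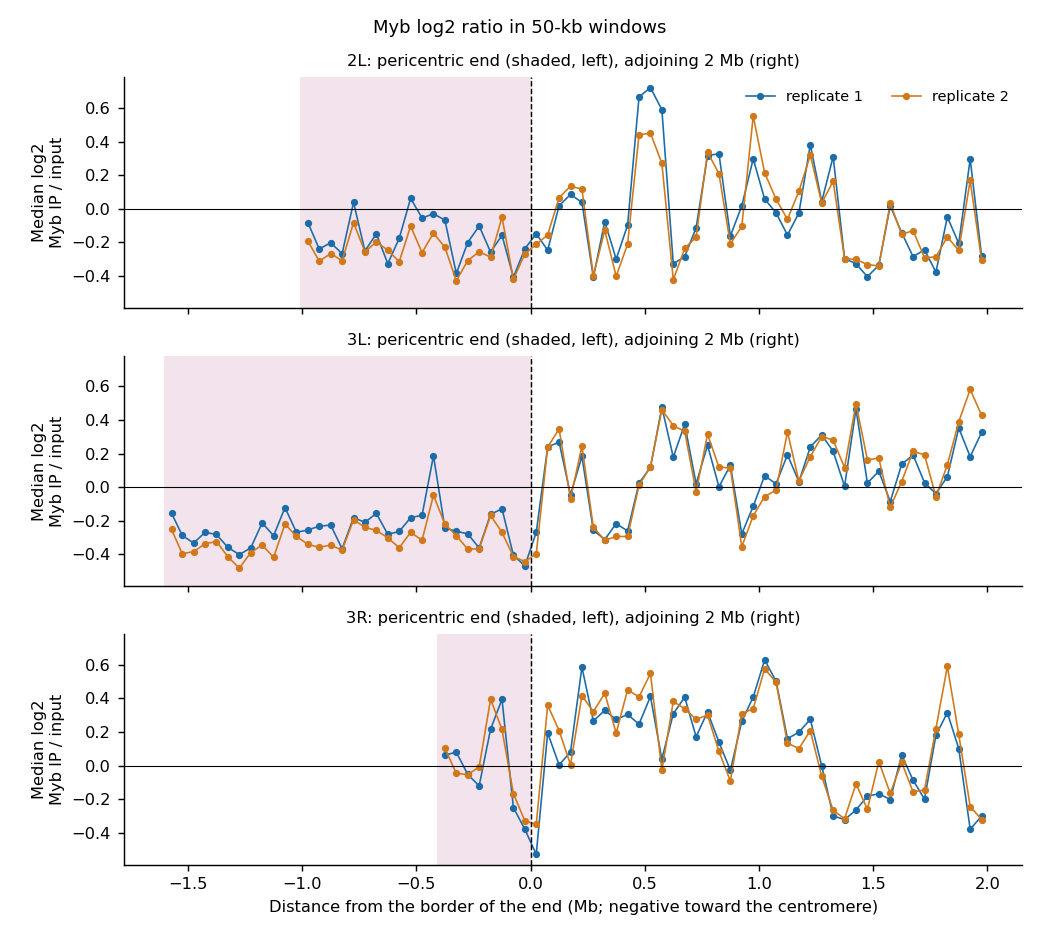
Median log2 ratio of Myb IP over input (vertical axis) in windows of 50 kb, by distance in Mb from the border between the pericentric end (shaded, left) and the adjoining 2 Mb (right), with 1 line per replicate. The 3L end stays below 0 in 31 of 32 windows in both replicates, whereas the 3R end crosses 0.

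The whole distribution of bins was shifted on 3L, and its upper tail was thinned. On 2L it was mainly the upper part that was lower. The upper quartile of the 2L end was 0.06 and −0.05, against 0.27 and 0.27 in the adjoining 2 Mb. The lower quartile there was −0.39 and −0.42, against −0.34 and −0.32. In the 3L end 71.3% of the bins lay below 0 in both replicates, against 32.5% in the adjoining 2 Mb, and in the 2L end 67.9% did, against 48.4%. Bins above 0.5 in both replicates numbered 19 in the 3L end (1.26%), against 225 in the adjoining 2 Mb (11.4%). On 2L there were 40 such bins in the end (4.19%) and 176 in the adjoining 2 Mb (8.97%). The 3R end differed less, with 42.2% of its bins below 0 in both replicates, against 30.9%, and 48 bins above 0.5 (12.3%), against 262 (13.1%). The bins of an end were also more alike on 2L and 3L, where the interquartile range was 0.46 and 0.37 in the 2L end, against 0.61 and 0.60 in the adjoining 2 Mb, and 0.47 and 0.36 in the 3L end, against 0.53 and 0.61. Pearson's r between replicates across the bins of an end was 0.80 on 2L, 0.81 on 3L and 0.76 on 3R, a description only, since neighboring bins share DNA fragments.

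**Figure D2:**
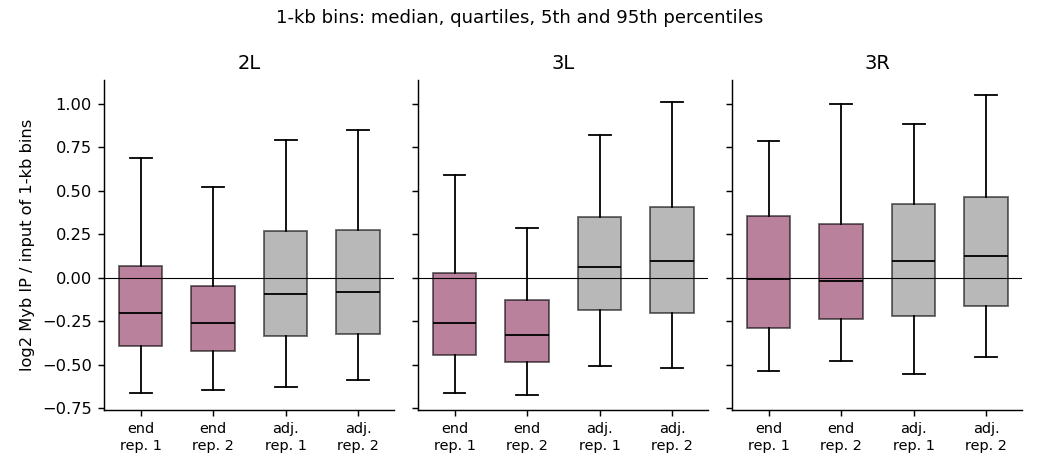
Log2 ratio of Myb IP over input (vertical axis) of the 1-kb bins of each arm, for the end and then the adjoining 2 Mb (adj.) in replicates 1 and 2 (rep.). Lines are medians, boxes quartiles and whiskers the 5th and 95th percentiles of the bins, and in replicate 2 the upper quartile of the 3L end, at −0.13, lies below the median of the adjoining 2 Mb, at 0.09.

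Along the arms, the low signal on 2L and 3L was spread over the whole end and was not confined to 1 place in it. Medians of 50-kb windows with 20 or more bins were below 0 in both replicates in 31 of 32 windows of the 3L end, against 10 of 40 in the adjoining 2 Mb. The exception, from 23.35 to 23.40 Mb, had 0.19 in replicate 1 and −0.05 in replicate 2. In the 2L end 18 of 20 windows were below 0 in both replicates, against 22 of 40. The windows averaged from −0.46 to 0.07 in the 3L end and from −0.41 to −0.02 in the 2L end. The lowest windows of the adjoining 2 Mb were at −0.33 on 3L and −0.40 on 2L, so low windows were also found there, though none was as low as the lowest of the end. On 3L the change did not fall exactly at the border, because the last 50 kb of the adjoining stretch were already at −0.27 and −0.40.

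The 3R end had another profile. Its windows ran from −0.35 to 0.31 on average, and 4 of 8 were below 0 in both replicates, against 12 of 40 in the adjoining 2 Mb. The windows from 0.20 to 0.25 Mb (0.22 and 0.39) and from 0.25 to 0.30 Mb (0.40 and 0.22) were the highest of the end. Those from 0.30 to 0.35 Mb (−0.25 and −0.17) and from 0.35 to 0.40 Mb (−0.38 and −0.33) were the lowest, and the first 50 kb beyond the border were lower still, at −0.53 and −0.35. Without the 100 kb next to the border the difference between the 3R end and the adjoining 2 Mb was −0.02 ± 0.03 (SD, n = 2), and against the adjoining 1 Mb alone it was −0.26 ± 0.06 (SD, n = 2), so its size depended on the stretches compared. The lower median of the 3R end thus came with a low stretch that crossed the border.

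Tested bin by bin against 0, the ends had fewer enriched and more depleted bins than the arrays as a whole. With limma and Benjamini-Hochberg adjustment over all bins, 234 of 2855 bins of the ends were enriched (8.20%), against a background of 18.6% over all bins and 22.0% in the adjoining stretches. Depleted bins numbered 732 (25.6%), against a background of 11.1% and 10.2% in the adjoining stretches. By arm, 75 bins were enriched in the 3L end (4.96%), against 426 in the adjoining 2 Mb (21.54%), and 483 were depleted (31.9%), against 163 (8.24%). On 2L, 81 were enriched in the end (8.49%), against 359 (18.3%), and 220 were depleted (23.1%), against 298 (15.2%). On 3R, 78 were enriched in the end (20.1%), against 518 (26.0%), and 29 were depleted (7.46%), against 146 (7.32%). Set against the background of all bins, the 3R end had slightly more enriched bins (20.1% against 18.6%) and fewer depleted bins (7.46% against 11.1%). That background includes bins outside the 6 chromosome arms, such as those of heterochromatic scaffolds. Over the bins of the 6 arms alone 21.9% were enriched and 9.67% depleted, so against these the 3R end had slightly fewer of both. The split between enriched and depleted bins depends on where 0 is set. Centring each array on the mode of its ratios raised all values by 0.08 to 0.13 and gave 320 enriched and 377 depleted bins in the ends, against backgrounds of 24.6% and 5.05%. With that centring the median of the 3R end was above 0, at 0.11 and 0.11, while those of 2L (−0.13 and −0.15) and 3L (−0.18 and −0.22) were below it.

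The input signal was higher in the ends of 2L and 3L than in the adjoining 2 Mb, and so moved together with the lower ratio. In the 3L end the median log2 input was 11.504 and 11.484 (replicates 1 and 2), against 10.20 and 10.03 in the adjoining 2 Mb, a 2.602-fold difference. In the 2L end it was 11.03 and 10.94, against 10.22 and 10.06, a 1.80-fold difference. In the 3R end it was 9.71 and 9.17, against 9.60 and 9.04, a 1.09-fold difference. The IP signal was higher in the ends of 2L and 3L too, by 0.63 ± 0.01 and by 1.00 ± 0.01 on the log2 scale (SD, n = 2), so both channels were brighter there and the input more so. On 3R the IP signal differed by −0.02 ± 0.10 (SD, n = 2), less than the spread between replicates. A probe whose sequence occurs many times in the genome binds DNA from all of its copies, and the copy number of the probes was not tested. Saturated probes made up 1.16% and 0.85% of the 3L end, against 0.23% and 0.18% of the adjoining 2 Mb, and the 3L difference was −0.38 without them. On 2L the order was the reverse, with 1.10% and 0.75% in the end, against 1.43% and 1.21% in the adjoining 2 Mb.

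**Figure D3:**
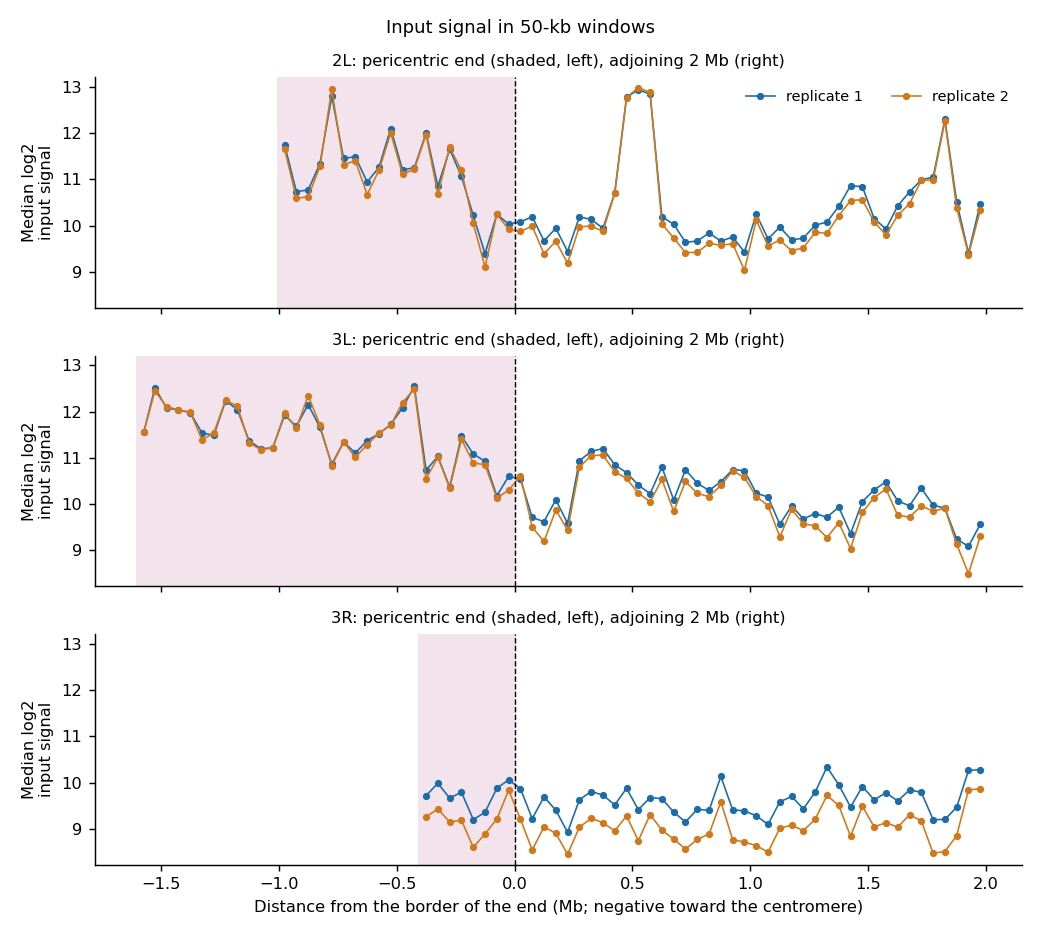
Median log2 input signal (vertical axis) in the same 50-kb windows, by distance in Mb from the border, with the end shaded on the left and 1 line per replicate. Input lies between 10.1 and 12.5 in the windows of the 3L end and between 8.50 and 11.2 in the adjoining 2 Mb.

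Among bins of like input, the difference between end and adjoining sequence narrowed on 3L with rising input and turned at high input, whereas on 2L it was wide at low input, near 0 at middle input and widest at the highest. For bins with a log2 input from 8 to 9, the 3L end had −0.42 and −0.31, against 0.28 and 0.48 in the adjoining 2 Mb, a difference of −0.75 ± 0.06 (SD, n = 2). It was −0.63 ± 0.01 for an input from 9 to 10, −0.40 ± 0.03 from 10 to 11 and −0.14 from 11 to 12. From 12 to 13 the sign turned, at 0.15 ± 0.04, over 343 bins of the end and 43 bins of the adjoining stretch. On 2L the difference was −0.27 ± 0.01 from 8 to 9 and −0.25 ± 0.04 from 9 to 10. It was −0.11 ± 0.03 from 10 to 11, 0.01 ± 0.06 from 11 to 12 and −0.18 ± 0.03 from 12 to 13. The lower ratio was thus present on 2L and 3L where the input of end and adjoining bins was alike and low. The widest 2L difference, −0.54 ± 0.10 above an input of 13, came with adjoining bins at 0.60 and 0.28, and the brightest adjoining windows lie where the histone gene repeats of 2L map. On 3R the bins from 8 to 9 differed by −0.19 ± 0.06, those from 9 to 10 by −0.107 ± 0.004 and those from 10 to 11 by 0.01 ± 0.06.

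**Figure D4:**
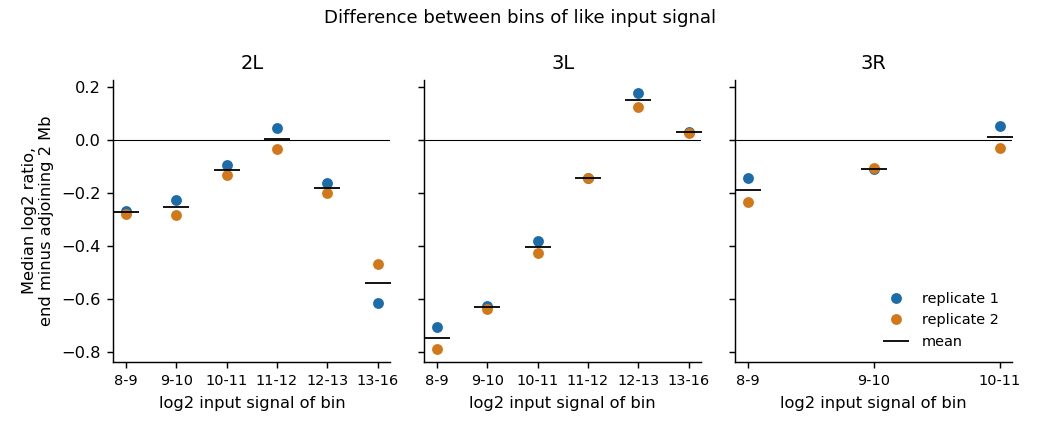
Median log2 ratio of the end minus that of the adjoining 2 Mb (vertical axis), for bins grouped by their mean log2 input signal (horizontal axis), where end and adjoining stretch each hold 20 or more bins. Points are replicates and bars their mean, and on 3L the difference runs from −0.75 at an input of 8 to 9 to 0.15 at 12 to 13.

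Myb-bound regions, runs of neighboring probes above the null distribution of their array design, were sparse in the ends of 2L and 3L. The 3L end held 63 regions, or 39.5 per Mb, against 333 in the adjoining 2 Mb, or 166.5 per Mb, and they covered 4.25% of the end, against 18.8%. The 2L end held 60, or 59.3 per Mb and 6.79% of its length, against 264, or 132.0 per Mb and 15.1%. The 3R end held 47, or 117.5 per Mb and 16.2%, against 338, or 169.0 per Mb and 21.04%. On 3R this order depended on the calling, since at a mean p below 0.001 the end held 47.5 regions per Mb, against 44.0. The 3R densities were also close to each other with replicate 1 alone (152.5 in the end and 155.0 in the adjoining 2 Mb) and for regions of replicate 1 that overlapped one of replicate 2 (122.5 and 124.5). With replicate 2 alone the 3R end was clearly lower (150 against 228.5), as it was with another background correction (135 against 179). On 2L and 3L the end had the lower density at each threshold tried. Over the 6 chromosome arms there were 152.6 regions per Mb. The longest stretch without a region was 154.5 kb in the 3L end, at chr3L:23815987-23970485, against 198.7 kb in the adjoining 2 Mb. Gaps of over 50 kb numbered 8 in the 3L end, against 3 in the longer adjoining stretch, and 4 in the 2L end, against 5.

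The regions of the ends were of different kinds by input. In the 3L end 39 of 63 regions (61.9%) had a mean log2 input of 12 or above, against 5 of 333 in the adjoining 2 Mb (1.502%). These 39 regions had medians of 0.91 in replicate 1 and 0.46 in replicate 2, and replicate 1 was the higher in all 39. Only 10 regions of the 3L end had an input below 10, with medians of 0.69 and 1.04, and replicate 2 was the higher in 9 of them. In the 2L end there were 27 regions of each kind, and replicate 1 was the higher in all 27 with high input and replicate 2 in 20 of 27 with low input. Per Mb, high-input regions were fewer in the 2L end (26.7) than in the adjoining 2 Mb (47.5), which held 95 among its 264 regions (36.0%), and replicate 1 was the higher in 94 of those 95. In the 3R end 42 of 47 regions had an input below 10 and none had an input of 12 or above. When each replicate was called by itself, the 3L end held 41 regions in replicate 1 and 23 in replicate 2, and the 2L end 48 and 35, so the counts depended on the replicate.

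**Figure D5:**
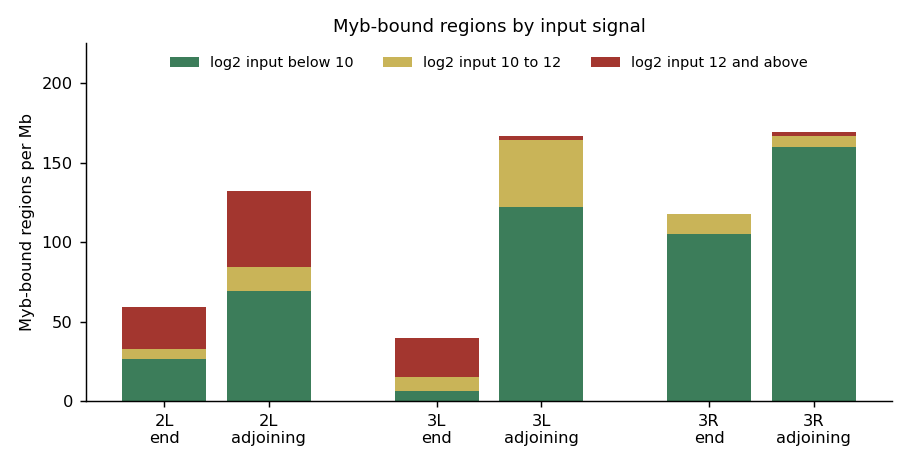
Myb-bound regions per Mb (vertical axis) in each end and, to its right, the adjoining 2 Mb of the same arm, stacked by the mean log2 input signal of the region. Regions with an input of 12 or above make up most of the 39.5 regions per Mb of the 3L end and few of the 166.5 per Mb of the adjoining 2 Mb.

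In the 2L end strong binding was found at few places, among them Clamp, which encodes a zinc finger protein that binds GA repeats and recruits the dosage compensation complex to the male X chromosome. Over its transcript (chr2L:22166552-22168535) Clamp had a mean ratio of 0.67 and 0.84, and 1.48 and 1.91 within 500 bp of its end nearer the centromere. The bin at chr2L:22168001-22169000, on the same side, was the highest of the 2L end, at 1.37 and 1.83 (adjusted p = 0.00043, limma). The bound regions with the highest mean ratio were chr2L:22442877-22443394 (1.19 and 1.42) and chr2L:22133854-22134891 (0.80 and 1.54), followed by chr2L:22873759-22875719 (1.05 and 1.29), chr2L:22470907-22472825 (1.01 and 1.31) and chr2L:22736223-22738012 (0.70 and 1.56). The next highest bins, chr2L:22874001-22875000 (1.21 and 1.75) and chr2L:22471001-22472000 (1.28 and 1.55), lay within the regions of the same positions. All 5 regions had a log2 input between 6.86 and 9.22, below the median of the end. The other genes placed here were low. CG40006 spans 112988 bp and had −0.20 and −0.26, with 1.32% of its length in bound regions, and the longest stretch of the 2L end without a region, 112.6 kb at chr2L:22520675-22633238, lay largely inside it. CG41118 had −0.24 and −0.26, and Cht10, a chitinase gene, had −0.11 and −0.12 over 16398 bp, and neither overlapped a bound region.

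In the 3L end none of the genes placed had a positive mean ratio. Snap25, which encodes a SNARE protein of synaptic vesicle fusion, spans 218190 bp there and had −0.20 and −0.35, with 10 bound regions over 4.32% of its length. The transcripts of nrm, a cell adhesion gene of the immunoglobulin family, had −0.30 and −0.41 at chr3L:23024123-23027541 and −0.26 and −0.51 at chr3L:23018645-23020699, with no bound region within 23.3 kb of either. CR41454 had −0.27 and −0.31. The 2 shortest entries, CG40294 and CR40053, rest on 2 and 4 probes and differed more between replicates (−0.60 and −0.29, and −0.04 and −0.84). The strongest region of the 3L end, chr3L:23142913-23144019, was at 1.16 and 1.42 and held the highest bin, chr3L:23143001-23144000, at 1.29 and 1.49 (adjusted p = 0.00043, limma). The next by mean ratio were chr3L:23731069-23731660 (0.66 and 1.42) and chr3L:23118142-23119913 (0.82 and 1.17). After them came chr3L:23371801-23372116 (1.04 and 0.90) and chr3L:23330948-23332780 (0.70 and 1.10). The first of this pair had a log2 input of 12.65 and 12.56, and the other 4 regions had inputs between 5.52 and 7.80. The second highest bin, chr3L:24021001-24022000, had 1.02 and 1.11, and the third, chr3L:24415001-24416000, had 1.19 and 0.75. No gene was placed at these regions by the tables used.

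The 3R end was gene-dense in the 0.208 Mb between Dsk and CG9855, and it held both bound and unbound genes. Gene density was not counted in the rest of the end or in the adjoining 2 Mb. In the order of genes on Release 6 of the genome, 37 protein-coding genes lie between Dsk and CG9855, or 178 per Mb of the dm3 distance, against 17 between Clamp and Cht10 on 2L (22.9 per Mb) and 17 between nrm and Snap25 on 3L (13.4 per Mb). The site assigned to CG1103 and Skp2, an F-box subunit of an SCF ubiquitin ligase, had 0.95 and 1.87. The 2 sites assigned to CG1074 and eIF3-S10, a subunit of translation initiation factor 3, had 1.10 and 0.88, and 1.02 and 1.12. CG31522 had 1.30 and 1.495, and CG31523 had 0.70 and 1.96, with replicates further apart. CG12582, the beta-mannosidase gene, had 0.82 and 1.503 at its site, of which 93.8% lay in the strongest region of the end (chr3R:22724-23827, at 0.86 and 1.58). These sites come from a table of Myb peaks made from the same arrays, so their high values are not independent of the choice. The part of that table held placed sites in the 3R end only, and the genes of the 2L and 3L ends were placed by transcript. The shares of bound genes named can therefore not be compared between the ends. A further site of CG1103 had 0.56 and 1.10. Of the other strongest regions, chr3R:304486-306223 (0.69 and 1.62) overlapped the CG31523 site, chr3R:56946-59698 (0.83 and 1.26) overlapped CG14641 and held the highest bin, chr3R:58001-59000 (0.72 and 1.73), and chr3R:159610-160121 (0.84 and 1.39) and chr3R:5-1040 (0.73 and 1.32) had no gene placed at them. In all 5 strongest regions of the 3R end replicate 2 was the higher. The bins next in height were chr3R:213001-214000 (1.00 and 1.24) and chr3R:305001-306000 (0.73 and 1.49). Among genes placed by transcript, CG14641 was bound (0.65 and 0.72). CG9855 had 0.12 and 0.23, and Syt14, of the synaptotagmin family, had 0.27 and 0.02, with 14.9% of its length in a bound region. CG14642 had 0.20 and −0.16 over its longer transcript and CG1092 had 0.08 and −0.39 over its own, so the replicates of both genes lay on both sides of 0. Dsk, the gene of the drosulfakinin neuropeptides, had −0.23 and −0.55, below 0 in both replicates.

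Stretches below the null distribution, or depleted regions, were also found, at 14.9 per Mb over the 6 arms. The 3L end held 35, or 22.0 per Mb, against 18 in the adjoining 2 Mb, or 9.0 per Mb. The 2L end held 18 (17.8 per Mb), against 35 (17.5 per Mb), and the 3R end 8 (20.0 per Mb), against 41 (20.5 per Mb). The lowest bin of all ends, chr2L:22212001-22213000, had −1.33 and −0.97 (adjusted p = 0.00062, limma), with a log2 input of 6.83 and 6.90 that lay far below the median of the 2L end. The lowest bin of the 3L end, chr3L:23735001-23736000, had −1.03 and −0.89, with an input of 11.05 and 10.84. The next lowest were chr2L:22101001-22102000 (−0.87 and −0.94) and chr2L:22710001-22711000 (−1.01 and −0.69) on 2L, and chr3L:23178001-23179000 (−0.78 and −1.07) and chr3L:22957001-22958000 (−0.79 and −1.0004) on 3L. The lowest bins of the 3R end were less deep, chr3R:113001-114000 at −0.80 and −0.52, chr3R:369001-370000 at −0.91 and −0.37 and chr3R:182001-183000 at −0.75 and −0.51. All 9 lowest bins passed the limma test, with adjusted p from 0.00062 to 0.0132. They were picked by the same means that were tested, so their passing adds no support.

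Heterochromatic scaffolds of the same arms continue toward the centromere in the dm3 assembly. Of these, 2LHet and part of 3LHet had similar medians to the ends of 2L and 3L. The medians were −0.17 and −0.26 on 2LHet, and −0.26 and −0.34 on the part of 3LHet that shares its array design with 3L, with a log2 input near 12 in both. The 3RHet scaffold was lower than the 3R end, at −0.21 and −0.23, with an input of 11.8 and 11.6. No test of these medians was made.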

How the data were processed

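Myb ChIP-chip of yw67 wing discs was used, with 2 biological replicates on 2 array designs each (4 arrays). The authors deposited scanner output whose intensity values were, per the file headers, background-subtracted and dye-normalized by Agilent Feature Extraction version 11.5.1.1. The deposited log10 ratio served only as a check, and matched the ratio computed here within 0.001 for 99.5% to 99.7% of the genome spots of an array. A joint log2 table of both designs, with a column for each replicate, was also deposited by the authors and served, once centred, as an alternative. The dm3 assembly is that of the probe names.

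The log2 of processed Cy5 (IP) over Cy3 (input) intensity was taken per spot. Control spots and outlier spots (0.0364% to 0.353%) were dropped. Repeat spots of a probe were averaged, and the array median was subtracted. Input was well above background at 97.7% to 98.6% of genome spots, and 4 arrays limit the precision. Probes were averaged in bins of 1 kb with at least 5 probes. Bins were tested against 0 in R version 4.3.3 by limma version 3.58.1. Their p-values were adjusted over 146889 bins by Benjamini-Hochberg, with a threshold of 0.05. The p-values rest on the spread between 2 biological replicates, which limma moderated toward a variance shared by all bins. A p-value thus does not measure the replicate spread of its own bin alone, and neighboring bins are not independent. In Python version 3.11.15, Myb-bound regions were found by a neighborhood model with the settings of the study's methods (neighbors within 1000 bp, mean p below 0.05, 4 or more probes, gaps up to 300 bp). It was run on the mean of the replicates, with a null from the smoothed mode of each array design and the SD below it. It called more regions than the paper reports peaks, so its regions and densities are not those of the study. Both steps, the bin test and the region calling, were tested on simulated data. Alternatives of centring, background correction, saturated spots, bin size, border and threshold were tried one at a time.

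Named genes were all those that the supplementary tables, held in part (and assumed to be on dm3, with no strand), place in an end. Named regions were the 5 of each end with the highest mean ratio, and named bins the 3 highest and 3 lowest. Because these bins were picked by the values that limma tested, their adjusted p-values are not independent support. Release 6 gene names were used for order only. No sequence was printed. The members and lists were chosen with earlier results of these data known.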

Additional observations from a re-analysis of the deposited data

How the results depend on the processing

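The ends stayed lower than the adjoining sequence under every alternative run, 16 on 2L (−0.19 to −0.11), 15 on 3L (−0.50 to −0.29) and 15 on 3R (−0.26 to −0.02). Centring on the mode was among these but could not change a difference, since it shifts both stretches of an array alike. Leaving out a replicate gave −0.18 and −0.11 on 2L, −0.42 and −0.32 on 3L, and −0.15 and −0.10 on 3R. These only repeat the difference of the replicate that was kept, so they add no support. Against the adjoining 1 Mb the difference was −0.29 on 3L and −0.26 on 3R. On 3R it was −0.0852 against the rest of the arm, −0.0848 with the mean of the bins and −0.0222 without the 100 kb next to the border. For bins with a log2 input between 9 and 11, an alternative chosen after seeing the data, it was −0.50 on 3L and −0.0775 on 3R. The other alternatives moved the 3 differences by less than the SD between replicates, among them the 2L stretch without its histone gene repeats, also chosen after seeing the data.

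The 732 depleted bins were 377 with centring on the mode, and with 5-kb bins there were 270 depleted (45.1%, against 21.8% of all 5-kb bins) and 61 enriched (10.2%, against 25.5%) of 599, by construction fewer bins. The 170 bound regions of the 3 ends were 85 at a mean p below 0.01, 39 at 0.001, and 91 when each replicate had to hold the region. They were 118 and 150 with 1 replicate left out. The cause of these changes was not tested, beyond the stricter thresholds themselves. Bin calls with 1 replicate were not run, since no spread is left to estimate. No paired analysis was possible because all samples belong to 1 group.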
